A study of Xenopus laevis with 6 samples.

Results

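Semaphorins, slits and netrins are extracellular cues that steer growing axons, migrating neural crest cells and vessel sprouts, and they were followed here together with their receptors in *Xenopus laevis* embryos. The genes were taken by symbol, as every gene model whose symbol without its .L or .S suffix begins with sema, plxn or robo, with slit, ntn or nrp and a digit, or with unc5, or is *dcc*. This rule took 86 of the 35773 gene models in the count table, which carry 46 different symbols. The rule uses no expression value. Of the 86, 2 are copies of *unc50*, which the prefix caught although it is not a netrin receptor, and 84 remain without it. Suffixes L and S name the copies of the long and short subgenomes of this allotetraploid frog, and reads from highly similar copies could have been divided between them in a way that is not given in the sources used here. RefSeq's gene table for the assembly Xenopus_laevis_v10.1 held 68 of the 86 symbols, 65 of them on a chromosome of the subgenome in their suffix, while *nrp1.L*, *ntn1.L* and *plxna3.L* lie on S chromosomes there.

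Slits act mainly as repellents through Robo receptors, best known from the nervous system midline, where they keep axons from recrossing. Netrins attract axons through Dcc and repel them through Unc5 receptors. Semaphorins of class 3 are secreted and signal through neuropilins paired with class A plexins, whereas the membrane-bound classes bind plexins directly. In tailbud embryos these pathways guide the first axon tracts, sort cranial neural crest streams and shape the vasculature.

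The 6 libraries held poly(A) RNA from whole embryos at stage 32, a late tailbud stage, in 3 groups of 2. One group was injected with *kdm3a* MO (libraries numbered 3 and 4), one with *kdm5c* MO (1 and 2), and the control group (1 and 2) carries no injection in its labels. An MO is a morpholino antisense oligonucleotide. Both morpholinos target histone lysine demethylases. Injection was at the 2-cell stage by the labels but at the 1-cell stage by the methods of the study, and whether 1 or both cells were injected is not given in the sources used here. No frog strain and no number of embryos per library was given in the sources used here. The submitters describe the replicates as biological. For control 2, whose description gives the number 3, the number of the title was followed. Both *kdm3a* MO titles bear a later date than the other 4, so the condition and the date cannot be told apart in any comparison that uses them.

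Total counts were 20217436 and 13322018 in *kdm3a* MO 3 and 4, 13943342 and 12838245 in *kdm5c* MO 1 and 2, and 14603570 and 14718840 in control 1 and 2. Between 89.7% and 95.04% of the counts from 1 to 20 were even numbers, and how read pairs were counted is not given in the sources used here, so a count may not be an independent fragment. A count of 3, taken as the detection limit, corresponded to 0.143 to 0.303 CPM (counts scaled to a common library size, with TMM factors, the trimmed means of log ratios between libraries), which covers counting error only. The *kdm5c* MO blocks translation and the type of the *kdm3a* MO is not given, so counts of the targeted mRNAs do not check the labels. *kdm3a.L* was counted 8588 and 5529 times in the libraries labelled *kdm3a* MO, 609 and 905 times in *kdm5c* MO and 1820 and 1338 times in control libraries. *kdm5c.L* was counted 2860 and 2008 times in *kdm3a* MO, 1407 and 1702 times in *kdm5c* MO and 1723 and 1849 times in control libraries. In the same order of groups, *kdm3a.S* was counted 9077 and 3534, 1259 and 1255, and 3909 and 2501 times. Counts of *kdm5c.S* were 1296 and 1070, 343 and 860, and 914 and 1070. *kdm5c* MO 1 stood apart, with a TMM factor of 0.710 against 1.02 to 1.16 in the other 5 libraries and 28501 detected models against 30293 to 32734. Marker lists for tissues of the embryo were summed in each library. Neuron markers (8 of 9 symbols in the table) summed to 479 to 856 CPM in *kdm3a* MO, 924 to 1372 CPM in *kdm5c* MO and 405 to 979 CPM in control libraries. Skeletal muscle markers (5 of 6) summed to 9313 to 18070, 8736 to 27871 and 3516 to 9215 CPM in the same order of groups, neural progenitor markers (5 of 6) to 396 to 464, 394 to 446 and 499 to 783 CPM, and neural crest markers (5 of 5) to 201 to 317, 188 to 267 and 169 to 353 CPM. Endothelial markers (7 of 7) summed to 160 to 191, 160 to 218 and 164 to 252 CPM, and retina and lens markers (5 of 5) to 53.2 to 181, 150 to 168 and 133 to 224 CPM. Globin markers (3 of 6) had few counts, at most 36 in a copy (*hba1.L* in *kdm5c* MO 1). They summed to 0.271 to 1.05, 2.73 to 4.65 and 0.268 to 1.87 CPM. No copy of any list was at 0 in all 6 libraries. The neuron markers did not move together in *kdm5c* MO 1. There *tubb2b.L* and *tubb2b.S* had 3255 and 5261 counts, against 2249 and 3978 in *kdm5c* MO 2, and *gap43.L* 615 against 273. By contrast, *elavl3.L* and *elavl3.S* had 48 and 14 counts there, against 640 and 124 in *kdm5c* MO 2. In whole-embryo RNA, fewer cells of a type and less RNA per cell cannot be told apart.

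To see how the guidance genes stood after *kdm5c* knockdown, *kdm5c* MO embryos were compared with control embryos. Most copies were lower in *kdm5c* MO embryos, but no single copy passed the adjusted test. Of the 81 copies that passed the filter on low counts, 63 had a negative and 18 a positive log2 fold change. Their median was -0.54, against -0.02 over all 26152 models tested. More than 2-fold lower were 15 copies, against 2765 of the 26152 models, and more than 2-fold higher 0 copies, against 3628 of them. The medians were -1.07 for slits (5 of 5 copies lower), -0.90 for *dcc* (2 of 2), -0.70 for Unc5 receptors (5 of 6), -0.61 for Robo receptors (6 of 8), -0.60 for plexins (13 of 16), -0.51 for semaphorins (25 of 33), -0.35 for neuropilins (3 of 3) and -0.31 for netrins (4 of 6). Both copies of *unc50* lay the other way, with a median of 0.70. Among 38 symbols with both copies tested, both were lower in 24, both higher in 4 and opposite in 10.

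By edgeR's exact test with the study's limits, a false discovery rate (FDR) below 0.01 and a change above 4-fold, 0 copies were called, as were 0% of all models, and the lowest adjusted p of a copy was 1. At an unadjusted exact p below 0.05, 1 copy (*plxna3.S*) was lower, against 1.01% of all models, and 0 were higher, against 3.29% of all models. EdgeR's quasi-likelihood test also gave 0 calls, against 0% of all models. At that unadjusted limit it gave 1 lower copy, against 0.769% of all models, and 0 higher, against 2.62%. DESeq2's Wald test gave 5 lower copies (of 81), against 1.54% of all models, and 0 higher, against 4.37%. DESeq2 returned no adjusted p for these copies. The groups did not overlap in 30 copies with *kdm5c* MO the lower (37.0%, against 17.8% of all models) and in 3 with *kdm5c* MO the higher (3.70%, against 17.8% of all models), namely *plxnb3.S*, *sema4b.S* and *unc50.L*. The size of the shift depended on the library: the median was -0.25 without *kdm5c* MO 1, with 54 of 83 copies lower, and -0.94 without *kdm5c* MO 2, with 72 of 83 lower. Beside it stand the low TMM factor and the high muscle marker sum of *kdm5c* MO 1, whose part in the result was not tested. The family medians depended on single libraries too. Over the 4 fits that drop a single library, the median ranged from -1.41 to -0.23 for slits, from -1.62 to -0.22 for Unc5 receptors, from -0.91 to -0.13 for Robo receptors, from -0.92 to -0.38 for plexins, from -0.88 to -0.25 for semaphorins, from -1.003 to 0.04 for neuropilins and from -1.02 to 0.61 for netrins, and that of *dcc* was at most -0.43. The highest of these came without *kdm5c* MO 1 for slits, *dcc*, plexins, semaphorins and neuropilins and without control 2 for Unc5 receptors, Robo receptors and netrins. Scaled by library size alone, the copies' median was -0.81 with 72 of 81 lower, and that of all models moved to -0.34.

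*kdm3a* MO embryos were compared with the same control embryos, so the 2 comparisons are not independent of each other. Here the guidance genes were divided. Of 82 copies tested, 49 had a negative and 33 a positive log2 fold change, with a median of -0.10 against -0.02 over all 26491 models tested. More than 2-fold lower were 6 copies, against 2689 of the 26491 models. More than 2-fold higher was 1, the neuropilin copy *nrp1.L*, against 2778 of the models. Semaphorins had a median of -0.22 (23 of 33 lower) and *dcc* one of -0.66 (2 of 2), neuropilins one of 0.46 (1 of 3 lower), and *unc50* one of -0.73 (2 of 2). The medians of slits, Robo receptors, netrins, plexins and Unc5 receptors lay between -0.07 and 0.05, with plexins and Unc5 receptors crossing 0 when scaled by library size alone. Both copies were lower in 16 of 38 symbols, both higher in 7 and opposite in 15.

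Calls numbered 0 among these copies in edgeR's exact test, against 0.125% of all models, with a lowest adjusted p of 0.537. At an unadjusted exact p below 0.05, 1 copy (*slit3.S*) was lower, against 1.28% of all models, and 0 were higher, against 1.92%. By edgeR's quasi-likelihood test these counts were 1 and 0, against 1.01% and 1.69% of all models, and by DESeq2 3 and 1, against 1.93% and 2.51%. Both tools called 0 copies, against 0% of all models by the quasi-likelihood test and 0.313% by DESeq2. The groups did not overlap in 15 copies with *kdm3a* MO the lower (18.3%, against 14.9% of all models) and in 12 with *kdm3a* MO the higher (14.6%, against 17.1%). The median depended on single libraries, and was 0.13 without control 2, when that of all models was 0.14, and -0.26 without *kdm3a* MO 4. With 1 library left out, the semaphorin and neuropilin medians kept their direction, at -0.28 to -0.09 and 0.27 to 0.72. Those of the 6 other families named next changed sign. The *dcc* median was 0.35 without *kdm3a* MO 3 and 0.49 without control 2, and the medians ranged from -0.70 to 0.76 for netrins, from -0.35 to 0.43 for slits, from -0.35 to 0.44 for Unc5 receptors, from -0.24 to 0.18 for plexins and from -0.14 to 0.20 for Robo receptors.

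Set against each other, *kdm3a* MO embryos had higher values than *kdm5c* MO embryos in most guidance gene copies. Of 81 copies tested, 14 had a negative and 67 a positive log2 fold change of *kdm3a* MO over *kdm5c* MO, with a median of 0.38 against 0.03 over all 26092 models tested. The family medians were 0.95 for slits (4 of 4 higher), 0.75 for neuropilins (3 of 3), 0.74 for Unc5 receptors (7 of 7), 0.57 for Robo receptors (7 of 8), 0.43 for plexins (15 of 16), 0.26 for *dcc* (2 of 2), 0.23 for netrins (5 of 6) and 0.20 for semaphorins (24 of 33). More than 2-fold higher were 7 of the 81 copies, against 2269 of the 26092 models. More than 2-fold lower were 3, which include both copies of *unc50*, against 2870 of the models. Both copies were higher in 26 of 38 symbols, both lower in 2 and opposite in 10.

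EdgeR's exact test called 0 of these copies, against 0.0537% of all models. The lowest adjusted p was 0.884, that of a copy of *unc50*, and 0.888 among the copies without *unc50*. At an unadjusted exact p below 0.05, 3 copies (*nrp1.L*, *slit2.L* and *unc5b.L*) were higher, against 1.52% of all models, and 1 (*unc50.L*) was lower, against 3.13%. EdgeR's quasi-likelihood test gave 3 higher and 1 lower, against 1.43% and 2.77% of all models, and DESeq2 2 higher and 1 lower, against 1.49% and 4.38%. Both tools called 0 copies, against 0% of all models by the quasi-likelihood test and 0.0843% by DESeq2. Both *kdm3a* MO libraries lay above both *kdm5c* MO libraries in 30 copies (37.0%, against 18.4% of all models) and below both in 6 (7.41%, against 15.9%). Without *kdm5c* MO 1 the median was 0.14 with 33 of 80 copies lower, and without *kdm5c* MO 2 it was 0.89 with 14 of 81 lower. The semaphorin median was -0.15 without *kdm5c* MO 1, with 18 of 33 copies lower. The *dcc* median turned negative without *kdm3a* MO 4 and also, at -0.18, without *kdm5c* MO 1, and the lowest median with 1 library left out was 0.34 for slits, 0.28 for Unc5 receptors, 0.32 for plexins and 0.42 for neuropilins, each without *kdm5c* MO 1. The difference in date between the groups applies here too.

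**Figure D1:**
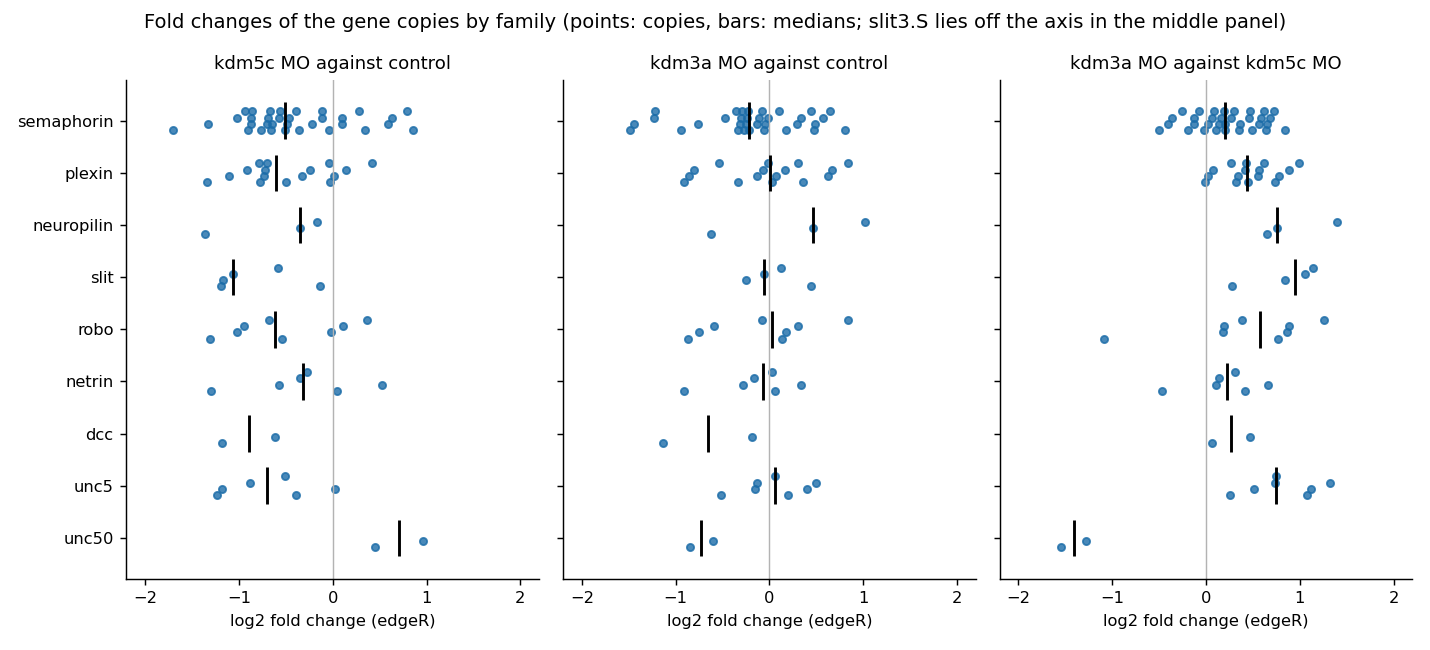
Log2 fold changes of the guidance gene copies by family, with 1 point per copy tested and a bar at each family's median. The left panel sets *kdm5c* MO against control, the middle panel *kdm3a* MO against control and the right panel *kdm3a* MO against *kdm5c* MO. *slit3.S* lies off the axis in the middle panel but counts in the median. Family medians other than that of *unc50* lie below 0 in the left panel, from -1.07 to -0.31, and above 0 in the right panel.

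Among the ligands, the slits include *slit2*, a midline repellent of vertebrates. *slit2.L* stood at 61.96 and 63.5 CPM in *kdm3a* MO, 25.5 and 31.2 CPM in *kdm5c* MO and 80.04 and 47.9 CPM in control libraries. Both *kdm5c* MO libraries lay below the other 4. The log2 fold change of *kdm5c* MO against control was -1.17 (standard error 0.63, exact p = 0.0677), that of *kdm3a* MO against control -0.05 (standard error 0.59, exact p = 0.930), and that of *kdm3a* MO against *kdm5c* MO 1.14 (standard error 0.52, exact p = 0.0332). *slit2.S* stood at 55.2 and 50.7 CPM in *kdm3a* MO, 16.5 and 34.3 CPM in *kdm5c* MO and 37.2 and 38.8 CPM in control libraries. Here *kdm3a* MO lay above all other libraries and *kdm5c* MO below them, with log2 fold changes of 0.45 (standard error 0.56, exact p = 0.427) against control and 1.05 (standard error 0.59, exact p = 0.0793) against *kdm5c* MO. For the copies of *slit1*, a neural slit in mammals, *slit1.L* stood at 4.47 and 26.98 CPM in *kdm3a* MO, 1.62 and 15.8 CPM in *kdm5c* MO and 12.2 and 24.4 CPM in control libraries. It was low in 1 library of each morphant group, *kdm3a* MO 3 and *kdm5c* MO 1, so that the groups overlapped. *slit1.S* stood at 13.4 and 23.2 CPM in *kdm3a* MO, 11.1 and 18.8 CPM in *kdm5c* MO and 12.9 and 20.1 CPM in control libraries, with overlapping groups and log2 fold changes between -0.14 and 0.28. *slit3.S*, the only copy of *slit3* in the table, was near the detection limit, with 0 and 0 counts in *kdm3a* MO, 0 and 8 in *kdm5c* MO and 12 and 11 in control libraries. Its control mean was 3.57-fold above the floor of 3 counts in the shallower *kdm3a* MO library. This ratio leaves out the error of the control counts, and 3 counts may be fewer than 3 fragments. In *kdm3a* MO against control the copy had an exact p of 0.00388 and an adjusted p of 0.537 by edgeR. With this copy set at that ratio below control, the medians of the slits and of all copies in that comparison remained -0.05 and -0.10.

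The slit receptors followed no single order. *robo4.S*, a copy of the Robo receptor known from mammalian endothelium, stood at 17.97 and 18.6 CPM in *kdm3a* MO, 5.86 and 9.33 CPM in *kdm5c* MO and 16.8 and 21.1 CPM in control libraries. Both *kdm5c* MO libraries lay below all others. Its log2 fold change was -1.31 (standard error 0.71, exact p = 0.0735) in *kdm5c* MO against control and 1.26 (standard error 0.68, exact p = 0.0711) in *kdm3a* MO against *kdm5c* MO. The L copy did not share this order, since *robo4.L* stood at 6.70 and 3.18 CPM in *kdm3a* MO, 8.29 and 12.6 CPM in *kdm5c* MO and 5.29 and 10.9 CPM in control libraries, with *kdm3a* MO below *kdm5c* MO and a log2 fold change of -1.08 (standard error 0.81, exact p = 0.198). *robo1.L*, a copy of a main axonal receptor of Slit2, stood at 26.96 and 31.4 CPM in *kdm3a* MO, 12.8 and 19.03 CPM in *kdm5c* MO and 23.6 and 22.7 CPM in control libraries, without overlap between any 2 groups. Its log2 fold changes were -0.54 (standard error 0.64, exact p = 0.414) in *kdm5c* MO against control and 0.30 (standard error 0.58, exact p = 0.605) in *kdm3a* MO against control. *robo3.S*, a copy of the receptor that in mammals lets commissural axons cross the midline, stood at 39.3 and 43.3 CPM in *kdm3a* MO, 20.6 and 23.96 CPM in *kdm5c* MO and 39.5 and 32.3 CPM in control libraries, whereas *robo3.L* stood at 44.1 and 45.4 CPM in *kdm3a* MO, 41.8 and 36.8 CPM in *kdm5c* MO and 33.6 and 46.4 CPM in control libraries. *kdm5c* MO was lowest for the S copy, while both morphant groups overlapped the controls for the L copy, and the log2 fold changes of *kdm5c* MO against control were -0.69 and -0.02. *robo1.S* ranged from 2.53 CPM in *kdm5c* MO 1 to 8.13 CPM in control 2.

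The netrins, ligands of Dcc and Unc5 receptors, mostly overlapped between groups. *ntn1.L*, a copy of the floor plate attractant of commissural axons, stood at 46.1 and 48.3 CPM in *kdm3a* MO, 35.4 and 40.2 CPM in *kdm5c* MO and 34.3 and 38.9 CPM in control libraries. *kdm3a* MO lay above the other libraries, with a log2 fold change against control of 0.34 (standard error 0.56, exact p = 0.554). *ntn3.L* stood at 6.51 and 5.41 CPM in *kdm3a* MO, 4.65 and 4.25 CPM in *kdm5c* MO and 10.6 and 11.3 CPM in control libraries. All 4 morphant libraries lay below both controls for this netrin copy, and its log2 fold change was -1.30 (standard error 0.79, exact p = 0.115) in *kdm5c* MO and -0.91 (standard error 0.75, exact p = 0.236) in *kdm3a* MO, each against the same control libraries. The share of all models with all 4 morphant libraries on 1 side of both controls is not given here. This order, also named for other families below, can therefore not be called particular to guidance genes. The other netrin copies overlapped between groups in both comparisons with control. Their lowest and highest values were 3.42 and 14.9 CPM for *ntn1.S*, both in control libraries, 7.96 and 17.1 CPM for *ntn3.S*, and 0.871 and 3.03 CPM for *ntn4.S*, a copy of the basement membrane netrin.

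Among netrin receptors, *unc5b.L* followed the order of *slit2.L*. It stood at 60.01 and 69.6 CPM in *kdm3a* MO, 28.6 and 32.8 CPM in *kdm5c* MO and 90.8 and 49.1 CPM in control libraries, with both *kdm5c* MO libraries below all others. The log2 fold change of this copy of a repulsive receptor, known from axons and vessels, was -1.18 (standard error 0.64, exact p = 0.0707) in *kdm5c* MO against control and 1.07 (standard error 0.52, exact p = 0.0449) in *kdm3a* MO against *kdm5c* MO. *unc5b.S* stood at 32.7 and 46.3 CPM in *kdm3a* MO, 20.6 and 26.7 CPM in *kdm5c* MO and 34.2 and 33.5 CPM in control libraries, again lowest in *kdm5c* MO, with log2 fold changes of -0.51 (standard error 0.60, exact p = 0.399) against control and 0.73 for *kdm3a* MO over *kdm5c* MO. *unc5c.L* ranged from 6.61 to 14.8 CPM, both in *kdm3a* MO libraries. The remaining copies were near the detection limit in at least 1 library. *dcc.L*, a copy of the attractive netrin receptor, had 2 and 31 counts in *kdm3a* MO, 10 and 14 in *kdm5c* MO and 32 and 44 in control libraries, below both controls in all 4 morphant libraries. *dcc.S* had 0 and 16, 0 and 10, and 2 and 18 counts in the same order of groups. *unc5a.L* and *unc5a.S* reached at most 58 and 54 counts, *unc5c.S* 83 and *unc5d.S* 22, and each was at 2 counts or fewer in at least 1 library. *unc5d.S* passed the filter only where *kdm3a* MO took part.

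*unc50*, a trafficking factor of acetylcholine receptors in *Caenorhabditis elegans* and no guidance receptor, entered the list by its prefix alone. As 1 gene it is no control for the others. *unc50.L* stood at 9.80 and 8.12 CPM in *kdm3a* MO, 32.6 and 19.3 CPM in *kdm5c* MO and 18.2 and 8.71 CPM in control libraries, and *unc50.S* at 7.04 and 5.82 CPM in *kdm3a* MO, 20.01 and 11.1 CPM in *kdm5c* MO and 15.8 and 7.02 CPM in control libraries. Both copies were highest in *kdm5c* MO 1, and in both the *kdm3a* MO libraries lay below those of *kdm5c* MO without overlap. The log2 fold changes of *kdm3a* MO against *kdm5c* MO were -1.54 (standard error 0.64, exact p = 0.0198) for the L copy and -1.28 (standard error 0.72, exact p = 0.0854) for the S copy.

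**Figure D2:**
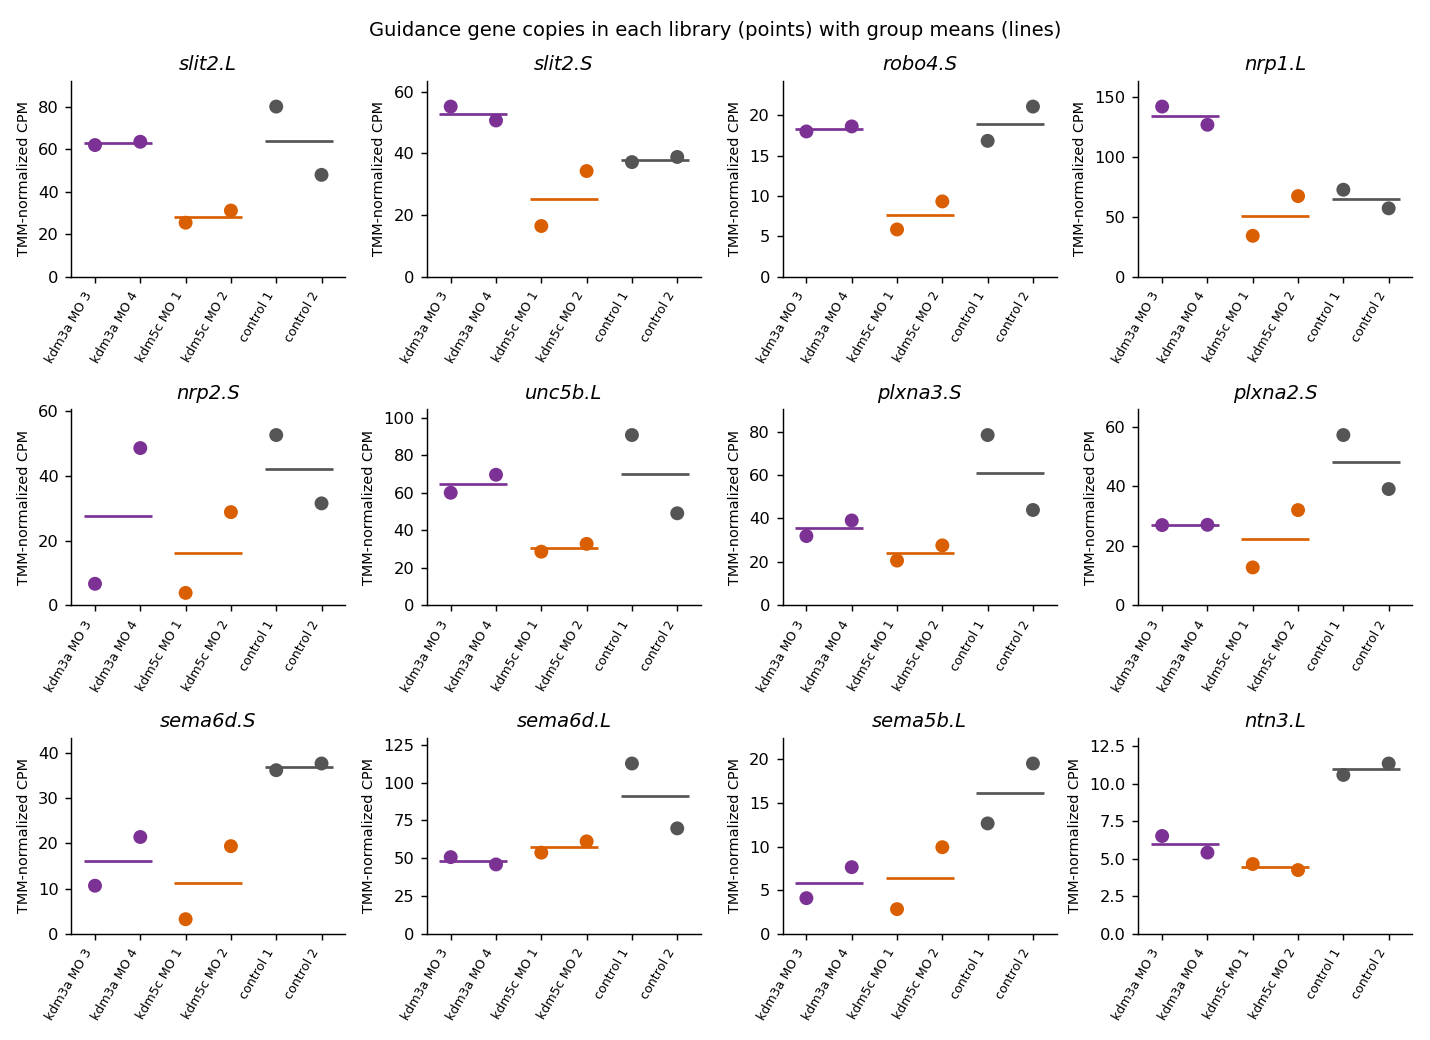
TMM-normalized CPM of 12 guidance gene copies in each of the 6 libraries (points), with group means (lines) and a separate linear axis from 0 for each copy. The 12 copies were picked without a stated rule and may not be typical. *robo4.L*, *sema5b.S* and *ntn3.S*, not shown, do not share the order of their partner copies. *kdm5c* MO lies lowest for *slit2.L*, *robo4.S* and *unc5b.L*, *kdm3a* MO highest for *nrp1.L*, and both controls lie above all morphant libraries for *sema6d.S*, *sema5b.L* and *ntn3.L*.

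Of the semaphorins, *sema6d*, a transmembrane ligand of class A plexins, was lower in both morphant groups than in controls. *sema6d.S* stood at 10.7 and 21.4 CPM in *kdm3a* MO, 3.23 and 19.4 CPM in *kdm5c* MO and 36.2 and 37.7 CPM in control libraries, and *sema6d.L* at 50.7 and 45.9 CPM in *kdm3a* MO, 53.7 and 61.1 CPM in *kdm5c* MO and 113 and 69.7 CPM in control libraries. All 4 morphant libraries lay below both controls in both copies. For *sema6d.S* the log2 fold change was -1.70 (standard error 0.88, exact p = 0.0647) in *kdm5c* MO, the lowest of all copies in that comparison, and -1.23 (standard error 0.64, exact p = 0.0636) in *kdm3a* MO. For *sema6d.L* it was -0.66 (standard error 0.63, exact p = 0.298) in *kdm5c* MO and -0.94 (standard error 0.59, exact p = 0.117) in *kdm3a* MO. *sema5b.L*, a copy of a transmembrane semaphorin with thrombospondin repeats, stood at 4.09 and 7.64 CPM in *kdm3a* MO, 2.83 and 9.93 CPM in *kdm5c* MO and 12.7 and 19.5 CPM in control libraries. Both controls were again above all morphant libraries, with log2 fold changes of -1.33 (standard error 0.86, exact p = 0.138) in *kdm5c* MO and -1.49 (standard error 0.76, exact p = 0.0608) in *kdm3a* MO. These comparisons share the control libraries, and none of these values passed the adjusted test. The share of all models with all 4 morphant libraries below both controls is not given here, so this order cannot be called particular to semaphorins. *sema5b.S* stood at 31.7 and 24.95 CPM in *kdm3a* MO, 32.6 and 39.7 CPM in *kdm5c* MO and 22.2 and 45.6 CPM in control libraries, and did not share this order.

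*sema3a*, the secreted collapsin that repels sensory axons, had copies with different orders. *sema3a.L* stood at 51.3 and 43.6 CPM in *kdm3a* MO, 21.6 and 39.8 CPM in *kdm5c* MO and 65.7 and 47.1 CPM in control libraries, with *kdm5c* MO below control and a log2 fold change of -0.87 (standard error 0.65, exact p = 0.186). *sema3a.S* stood at 5.99 and 7.10 CPM in *kdm3a* MO, 7.88 and 10.6 CPM in *kdm5c* MO and 19.02 and 10.99 CPM in control libraries, with *kdm3a* MO lowest, *kdm5c* MO next and control highest, and its log2 fold change in *kdm3a* MO against control was -1.22 (standard error 0.73, exact p = 0.108). *sema6a*, another ligand of class A plexins, had 2 of the 4 semaphorin copies with the highest mean CPM, with *sema6a.L* at 91.1 and 128 CPM in *kdm3a* MO, 62.7 and 94.6 CPM in *kdm5c* MO and 131 and 86.4 CPM in control libraries and *sema6a.S* at 58.6 and 81.8 CPM in *kdm3a* MO, 34.4 and 55.3 CPM in *kdm5c* MO and 92.97 and 50.2 CPM in control libraries. The controls differed from each other as much as the groups did for both copies. *sema4c.L*, a copy of a ligand of Plexin-B2, stood at 37.8 and 32.2 CPM in *kdm3a* MO, 15.4 and 26.7 CPM in *kdm5c* MO and 24.3 and 24.7 CPM in control libraries, with a log2 fold change of 0.72 (standard error 0.58, exact p = 0.220) for *kdm3a* MO over *kdm5c* MO. The groups overlapped for *sema4c.S*, at 42.5 and 33.3 CPM in *kdm3a* MO, 33.3 and 38.9 CPM in *kdm5c* MO and 47.1 and 31.3 CPM in control libraries. The log2 fold changes of the 33 tested semaphorin copies spanned -1.70 to 0.85 in *kdm5c* MO against control, -1.49 to 0.81 in *kdm3a* MO against control and -0.51 to 0.84 in *kdm3a* MO against *kdm5c* MO. *sema4b.S*, a copy of a transmembrane class 4 semaphorin, lay above both controls in all 4 morphant libraries, at 25.2 and 25.8 CPM in *kdm3a* MO, 34.4 and 23.7 CPM in *kdm5c* MO and 16.1 and 17.5 CPM in control libraries.

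Neuropilins, the co-receptors of class 3 semaphorins that also bind vascular endothelial growth factor, included the copy with the highest log2 fold change of *kdm3a* MO over *kdm5c* MO. *nrp1.L* stood at 142 and 127 CPM in *kdm3a* MO, 34.2 and 67.2 CPM in *kdm5c* MO and 72.5 and 57.01 CPM in control libraries. Both *kdm3a* MO libraries lay above the other 4, while *kdm5c* MO and control overlapped. The log2 fold change was 1.40 (standard error 0.58, exact p = 0.0200) against *kdm5c* MO (adjusted p = 0.888) and 1.02 (standard error 0.58, exact p = 0.0840) against control. *nrp2.L* stood at 99.9 and 86.02 CPM in *kdm3a* MO, 46.98 and 70.6 CPM in *kdm5c* MO and 76.3 and 55.96 CPM in control libraries, with *kdm3a* MO again above all others and a log2 fold change of 0.46 (standard error 0.58, exact p = 0.428) against control. *nrp2.S* had no such order, at 6.66 and 48.6 CPM in *kdm3a* MO, 3.84 and 28.8 CPM in *kdm5c* MO and 52.6 and 31.5 CPM in control libraries, being low in *kdm3a* MO 3 and *kdm5c* MO 1.

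Among plexins, the signal-transducing semaphorin receptors, *plxna3.S* was the copy with the lowest unadjusted p in *kdm5c* MO against control. It stood at 31.9 and 39.1 CPM in *kdm3a* MO, 20.6 and 27.6 CPM in *kdm5c* MO and 78.4 and 43.9 CPM in control libraries. All 4 morphant libraries lay below both controls, with log2 fold changes of -1.34 (standard error 0.64, exact p = 0.0417) in *kdm5c* MO and -0.81 (standard error 0.60, exact p = 0.189) in *kdm3a* MO, though the controls differed widely from each other. *plxna2.S*, a copy of another class A plexin, stood at 26.96 and 27.1 CPM in *kdm3a* MO, 12.7 and 32.00 CPM in *kdm5c* MO and 57.2 and 39.1 CPM in control libraries, also below both controls in all 4, with log2 fold changes of -1.10 (standard error 0.70, exact p = 0.125) in *kdm5c* MO and -0.86 (standard error 0.58, exact p = 0.142) in *kdm3a* MO. The share of all models with this order is not given here. *plxnb1.S*, a copy of a receptor of class 4 semaphorins, stood at 27.9 and 37.5 CPM in *kdm3a* MO, 34.9 and 29.6 CPM in *kdm5c* MO and 82.6 and 39.1 CPM in control libraries. Control 1 was far above control 2 here, and the log2 fold change was -0.91 in each morphant group.

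*plxnb2*, *plxna2.L* and *plxna1.L* were the plexin copies with the highest mean CPM. *plxnb2.L*, a copy of a receptor needed for neural tube closure in the mouse, stood at 54.5 and 71.2 CPM in *kdm3a* MO, 24.4 and 48.4 CPM in *kdm5c* MO and 65.6 and 59.3 CPM in control libraries, and *plxnb2.S* at 59.8 and 109 CPM in *kdm3a* MO, 41.02 and 59.6 CPM in *kdm5c* MO and 109 and 65.3 CPM in control libraries. *kdm5c* MO lay lowest in both copies, and the log2 fold changes of *kdm3a* MO against *kdm5c* MO were 0.78 (standard error 0.59, exact p = 0.189) and 0.74 (standard error 0.58, exact p = 0.212). *plxna2.L* stood at 47.6 and 49.2 CPM in *kdm3a* MO, 33.5 and 29.04 CPM in *kdm5c* MO and 57.1 and 46.8 CPM in control libraries, with a log2 fold change of 0.62 (standard error 0.52, exact p = 0.241) in the same comparison. *plxna1.L* stood at 73.99 and 79.8 CPM in *kdm3a* MO, 82.6 and 40.2 CPM in *kdm5c* MO and 58.5 and 63.3 CPM in control libraries, with *kdm5c* MO 1 highest and *kdm5c* MO 2 lowest of the 6. Among the 16 tested plexin copies, log2 fold changes spanned -1.34 to 0.42 in *kdm5c* MO against control, -0.91 to 0.83 in *kdm3a* MO against control and -0.01 to 0.99 in *kdm3a* MO against *kdm5c* MO. The top of the last range was *plxna4-like.1.L*, at 7.37 and 9.20 CPM in *kdm3a* MO, 2.83 and 5.46 CPM in *kdm5c* MO and 0.536 and 9.88 CPM in control libraries, with a log2 fold change of 0.99 (standard error 0.83, exact p = 0.246).

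The *kdm5c* MO libraries differed from each other as much as the group did from control. The deviation of each copy from its mean over the 6 libraries, on log2(CPM + 0.5), had a median over 82 copies of 0.10 and 0.28 in *kdm3a* MO 3 and 4, -0.59 and 0.05 in *kdm5c* MO 1 and 2, and 0.12 and 0.33 in control 1 and 2. Over all models these medians lay between -0.05 and 0.06. *kdm5c* MO 1 was the lowest library in 41 of the 82 copies, against 25.1% of all models, and *kdm5c* MO 2 in 5, against 9.41%. Without a shared library, the median difference was -0.74 for *kdm5c* MO 1 minus control 1 and -0.22 for *kdm5c* MO 2 minus control 2, with 55 and 59 of 82 copies lower. In the other pairing it was -0.83 for *kdm5c* MO 1 minus control 2, with 71 lower, and -0.11 for *kdm5c* MO 2 minus control 1, with 44 lower. Over all models these medians, in the order given, were 0.008, -0.002, -0.107 and 0.042. In *kdm5c* MO 1, 33 copies were more than 2-fold lower than in control 1, against 20.9% of all models, and 8 higher, against 24.5%. Against control 2, 37 were more than 2-fold lower there, against 23.4%, and 5 higher, against 19.1%. In *kdm5c* MO 2, 5 copies were more than 2-fold lower than in control 2, against 4.44% of all models. Against control 1, 6 of its copies were below by more than 2-fold, against 10.6% of all models, and 14 were above by more than 2-fold, against 20.8%. The median difference of *kdm5c* MO 1 minus *kdm5c* MO 2 was -0.59, against -0.08 over all models.

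**Figure D3:**
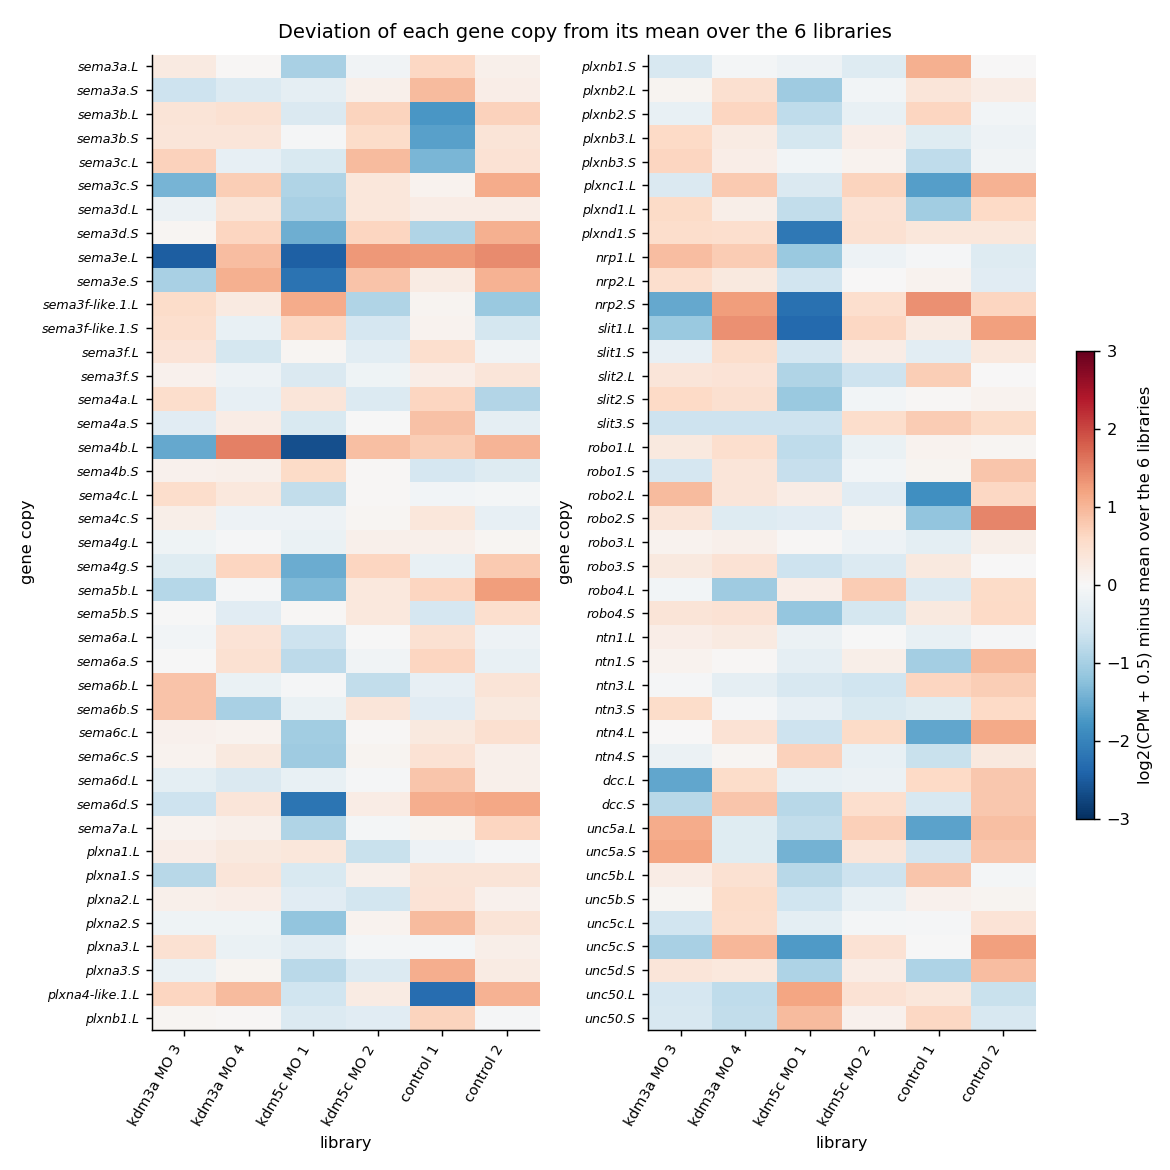
Deviation of each of 82 gene copies (rows) from its own mean over the 6 libraries (columns), on log2(CPM + 0.5), with blue for lower and red for higher. *kdm5c* MO 1 has a median deviation of -0.59, and single dark cells mark copies low in control 1 (such as *robo2.L*) or in *kdm3a* MO 3 and *kdm5c* MO 1 (such as *nrp2.S*).

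The 2 control libraries differed by a median of -0.16 (control 1 minus control 2), against -0.02 over all models. Of the 82 copies, 18 were more than 2-fold lower in control 1, against 21.4% of all models, and 6 more than 2-fold higher, against 10.8%. More than 4-fold lower in control 1 were 8 of the 82 copies, against 7.88% of all models, and more than 4-fold higher 0, against 2.203%. Being low in control 1 is therefore not particular to guidance genes. The 8 copies, chosen after their values were seen, were *robo2.L*, *robo2.S*, *sema3b.L*, *sema3b.S*, *unc5a.L*, *ntn4.L*, *plxnc1.L* and *plxna4-like.1.L*. *sema3b.L*, a copy of a secreted class 3 semaphorin and one of the 4 semaphorin copies with the highest mean CPM, stood at 80.98 and 85.3 CPM in *kdm3a* MO, 45.4 and 98.2 CPM in *kdm5c* MO and 18.02 and 100.2 CPM in control libraries, so that only control 1 was low. *robo2.L*, a copy of a neuronal slit receptor, stood at 12.4 and 8.05 CPM in *kdm3a* MO, 7.28 and 4.70 CPM in *kdm5c* MO and 1.34 and 9.71 CPM in control libraries, and *robo2.S* at 1.95 and 0.947 CPM in *kdm3a* MO, 1.01 and 1.52 CPM in *kdm5c* MO and 0.335 and 4.79 CPM in control libraries. *ntn4.L* stood at 3.42 and 4.73 CPM in *kdm3a* MO, 2.02 and 5.31 CPM in *kdm5c* MO and 0.804 and 8.07 CPM in control libraries. Their log2 fold changes against control therefore rest on which control is used. Marker lists also differed between the controls, and not in 1 direction. Lower in control 1 than in control 2 were 14 of 16 neuron copies, 11 of 14 endothelial copies, 8 of 10 skeletal muscle copies, 6 of 10 retina and lens copies and 5 of 5 globin copies, whereas 8 of 9 neural progenitor copies and 9 of 9 neural crest copies were higher. In control 1, 6 endothelial copies (*cdh5.L*, *cdh5.S*, *erg.L*, *pecam1.L*, *pecam1.S* and *tie1.S*) were at 0 counts, while *aplnr.L*, *aplnr.S* and *kdr.L* were higher there, so that the endothelial sum was 252 CPM in control 1 and 164 CPM in control 2. The lens crystallins *cryba1* and *crybb1* were at 0 in control 1 in all 4 copies, while the retinal genes *rax* and *vsx1* were higher there in all 4. The retinal gene *crx* was lower in control 1, where *crx.L* and *crx.S* had 106 and 162 counts, against 499 and 624 in control 2. Both copies of *isl1* and of *myod1* were also higher in control 1. The part of these tissues in the guidance gene values was not tested.

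**Figure D4:**
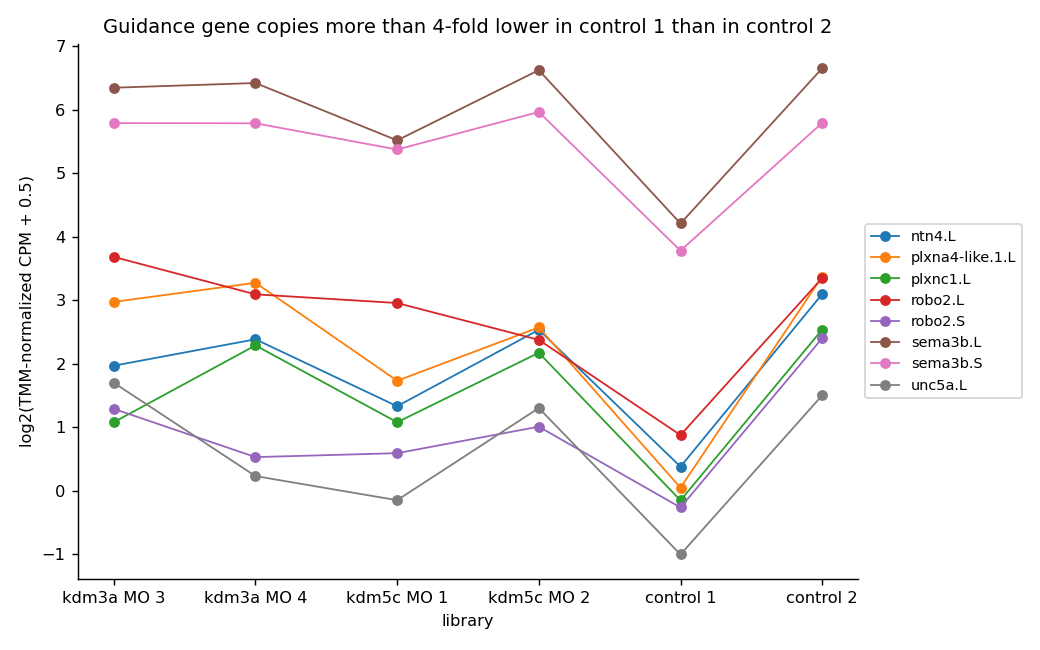
The 8 guidance gene copies that were more than 4-fold lower in control 1 than in control 2, as log2(TMM-normalized CPM + 0.5) in each library, with a line joining the values of 1 copy. Control 1 is the lowest library for each of the 8, and *sema3b.L* stands at 18.02 CPM there against 45.4 to 100.2 CPM in the other 5 libraries.

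In *kdm3a* MO 3 and *kdm5c* MO 1 several copies were low, in most of these pairs without the other copy, though in *sema3e* both were. Both copies of *dcc* were also low in *kdm3a* MO 3, where *dcc.S* had 0 counts against 16 in *kdm3a* MO 4. In *kdm5c* MO 1, *sema3d.L* and *plxnd1.L*, whose S copies were low there, stood at 13.03 and 12.5 CPM. In *kdm5c* MO 2 they stood at 33.6 and 28.5 CPM. More than 4-fold lower than in the other library of their group were 7 copies in *kdm3a* MO 3, against 4.05% of all models, and 10 copies in *kdm5c* MO 1, against 5.77%. In both libraries these were *nrp2.S*, *slit1.L*, *sema3e.L*, *sema3e.S* and *sema4b.L*, 5 of the 7 and 5 of the 10. The share of all models that were low in both was not counted, so this overlap cannot be called particular to guidance genes. The pair of *sema4b* showed the difference most plainly: *sema4b.L* stood at 1.90 and 19.3 CPM in *kdm3a* MO, 0.606 and 12.5 CPM in *kdm5c* MO and 11.1 and 13.4 CPM in control libraries, while *sema4b.S* was not low there. Its L share of the L and S counts was 7.03% and 42.8% in *kdm3a* MO 3 and 4, 1.73% and 34.5% in *kdm5c* MO 1 and 2, and 40.9% and 43.5% in control 1 and 2. The L share of *nrp2*, which binds class 3 semaphorins including Sema3f, was 93.8% and 63.9% in *kdm3a* MO 3 and 4, 92.4% and 71.01% in *kdm5c* MO 1 and 2, and 59.2% and 63.97% in control 1 and 2, and that of *slit1* 25.1% and 53.8% in *kdm3a* MO 3 and 4, 12.7% and 45.7% in *kdm5c* MO 1 and 2, and 48.7% and 54.9% in control 1 and 2. *sema3e*, a ligand of Plexin-D1 in vessels, had L shares of 4% and 25.4% in *kdm3a* MO 3 and 4, 11.1% and 34.1% in *kdm5c* MO 1 and 2, and 44.3% and 33.3% in control 1 and 2, and *sema4a*, a class 4 semaphorin, 74.01% and 51.99% in *kdm3a* MO 3 and 4, 73.3% and 53.5% in *kdm5c* MO 1 and 2, and 56.2% and 49.8% in control 1 and 2. The exact binomial intervals (95%, counting error only) of *kdm3a* MO 3 and *kdm5c* MO 1 did not meet those of the other 4 libraries for *nrp2*, *sema4a*, *sema4b* and *slit1*. These pairs were picked for a gap between those 2 libraries and the other 4, so the separate intervals give no further support. A count may not be an independent fragment, so the intervals may also be too narrow. For *sema3e* the share in *kdm5c* MO 1 rested on 18 counts, with an interval of 1.38% to 34.7%.

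These 5 pairs, selected after their values were seen by a gap of more than 1 on log2(L/S) between those 2 libraries and the other 4, were 13.9% of the 36 guidance gene pairs with at least 100 counts on average, against 8.36% of 7285 pairs in the whole table. Over the 36 pairs, the range of log2(L/S) across the 6 libraries had a median of 1.76, against 1.65 over all pairs, which is a description and was not tested. The 2 libraries belong to different conditions. The part of read assignment between similar copies in these shares was not tested.

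**Figure D5:**
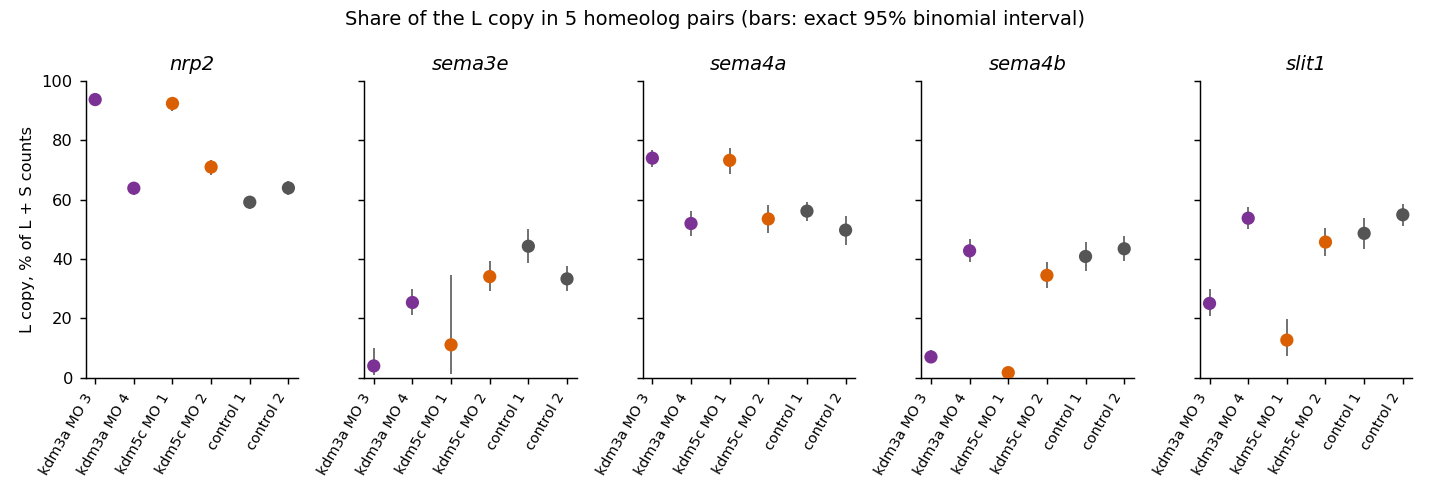
Share of the L copy in the L and S counts of 5 gene pairs, in percent, for each library, with exact 95% binomial intervals for counting error. *kdm3a* MO 3 and *kdm5c* MO 1 stand apart from the other 4 libraries, above them for *nrp2* (93.8% and 92.4%) and *sema4a* and below them for *sema3e*, *sema4b* and *slit1*. The pairs were picked for this gap.

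Other genes of the guidance pathways, from a list of 44 symbols of which 38 were in the table with 72 copies, are given for comparison. In *kdm5c* MO against control, 45 of 70 tested copies were lower (against 50.8% of all models), with a median of -0.27 (against -0.02). At an unadjusted exact p below 0.05, 0 copies were higher, against 3.29% of all models, and 1 was lower, against 1.01%. That copy was *farp2.S*, a copy of a Rac activator downstream of class 3 semaphorins, with 124 and 312 counts in *kdm3a* MO, 60 and 149 in *kdm5c* MO and 784 and 325 in control libraries and a log2 fold change of -2.03 in *kdm5c* MO (standard error 0.76, exact p = 0.0116). In *kdm3a* MO against control 43 of 71 copies were lower (against 50.9% of all models), with a median of -0.16 (against -0.02). There 0 copies passed that limit, against 1.28% of all models lower and 1.92% higher. In *kdm3a* MO against *kdm5c* MO 50 of 69 were higher (against 51.9% of all models), with a median of 0.23 (against 0.03). Again 0 passed the limit, against 3.13% of all models lower and 1.52% higher. Of the sublists, slit and netrin effectors, which include the srGAP and Ena/VASP families, had medians of -0.52 in *kdm5c* MO against control (17 of 24 lower) and -0.33 in *kdm3a* MO against control (19 of 24 lower). The Ena/VASP copies were divided. Both copies of *enah* were lower in both comparisons, whereas *evl.L* was higher, at 0.31 and 1.11, and *evl.S* stood at -0.27 and 0.77. Semaphorin effectors such as the collapsin response mediators had medians of -0.02 and 0.08, and receptor partners and further ligands medians of -0.28 and -0.11. EdgeR's exact test called 0 copies of the list in each comparison, with a lowest adjusted p of 1. Of all models it called 0% in *kdm5c* MO against control, 0.125% in *kdm3a* MO against control and 0.0537% in *kdm3a* MO against *kdm5c* MO.

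Not every copy could be tested. *plxna4-like.1.S*, *plxna4-like.2.S*, *robo2-like.L* and *robo2-like.S* passed the filter on low counts in no comparison, with at most 26, 4, 10 and 4 counts in any library, which leaves a difference in these copies undetectable at this depth. *slit3.S* and *unc5d.S* passed it in 2 of the 3 comparisons, and the other 80 copies in all 3.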

How the data were processed

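Poly(A) RNA of whole *Xenopus laevis* embryos was sequenced in 6 libraries. The authors deposited 1 table of raw read counts per gene model, not normalized. The submitters' processing notes name BWA 0.7.10, and the treatment of read pairs and of reads mapping to several models is not given in the sources used here. Sample titles gave the groups and the replicate numbers.

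Each pair of groups was compared with edgeR 4.0.16 (R 4.3.3). The exact test and the limits for calls, an FDR below 0.01 and more than 4-fold, follow the study's methods. The filter (filterByExpr), TMM scaling and Benjamini-Hochberg adjustment over all models tested were chosen here. Standard errors were taken from edgeR's dispersions. The procedure was also run on simulated counts with changes far above 4-fold. Recovery of those changes was required only at a smaller spread between replicates than in these data. That run therefore does not show what size of change could be found here. P-values rest on dispersions estimated from 2 libraries a group and drawn toward a trend over all models tested. They do not measure the spread of 1 copy alone. Levels are TMM-normalized CPM, and they are not per transcript length, so genes were not compared with each other. Alternatives included edgeR's quasi-likelihood test and DESeq2 1.42.0, other scaling and filters, halved counts, summed L and S copies, and each library left out in turn.

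The genes, the pathway list and the marker lists were chosen with earlier results of these data known. Named were every tested slit, robo, netrin, *dcc*, neuropilin and unc5 symbol, the 6 semaphorin or plexin copies of lowest unadjusted p in each comparison, and the 4 semaphorin and 4 plexin copies of highest mean CPM. Other copies were named after their values were seen. Apart from the chromosome of each matched symbol, gene positions and sequences were not used here.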

Additional observations from a re-analysis of the deposited data

How the results depend on the processing

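In all 3 comparisons 0 copies were called under every alternative that kept all libraries, including an FDR below 0.05 with no fold limit, except that DESeq2 returned no adjusted p for the copies in *kdm5c* MO against control. At the study's limits, these alternatives called at most 0.00951% of all models in *kdm5c* MO against control. The highest shares were 0.313% in *kdm3a* MO against control and 0.0843% in *kdm3a* MO against *kdm5c* MO. Having 0 calls is therefore not particular to guidance genes. The lowest adjusted p of a copy over the settings was 0.0993 in *kdm5c* MO against control, 0.131 in *kdm3a* MO against control and 0.289 in *kdm3a* MO against *kdm5c* MO, each with 1 library left out. With 1 library left out, the median log2 fold change ranged from -0.94 (without *kdm5c* MO 2) to -0.25 (without *kdm5c* MO 1) in *kdm5c* MO against control, from -0.26 (without *kdm3a* MO 4) to 0.13 (without control 2) in *kdm3a* MO against control, and from 0.14 (without *kdm5c* MO 1) to 0.89 (without *kdm5c* MO 2) in *kdm3a* MO against *kdm5c* MO. In these fits the lone library is assumed to vary like the other group. In the other settings these medians kept their direction, from -0.81 to -0.45 in *kdm5c* MO against control, from -0.11 to -0.05 in *kdm3a* MO against control and from 0.35 to 0.63 in *kdm3a* MO against *kdm5c* MO.

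Copies lower at an unadjusted p below 0.05 in *kdm5c* MO against control numbered 1 in the exact test (1.01% of all models), 5 with DESeq2 (1.54%), 4 with dispersions from all 6 libraries (1.13%), 3 with library size alone (1.36%) and 9 without *kdm5c* MO 2 (4.45%). With the replicate number as a replicate block the median was -0.54, with 0 calls and 2 copies lower at that limit (1.22% of all models). The samples share only a number: the difference between replicates 1 and 2 correlated between *kdm5c* MO and control with Pearson's r of 0.242 across genes, which are not independent, over 2 pairs. For the comparisons with *kdm3a* MO, no paired analysis was run, because by title its libraries, numbered 3 and 4, share no number with the other groups. The description of control 2 gives the number 3, so the numbers leave any pairing in doubt. That doubt covers the block that joins *kdm5c* MO 2 and control 2. Of the named copies' values, 29 of 183 changed sign with 1 library left out and 9 of 405 in other settings in *kdm5c* MO against control, 41 of 182 and 6 of 358 in *kdm3a* MO against control, and 22 of 165 and 1 of 326 in *kdm3a* MO against *kdm5c* MO. The causes were not tested. The biological coefficient of variation was 0.583 to 0.647, with 2 libraries a group.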
